A study of Mus musculus with 8 samples.

Results

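A set of 9 genes that start, restrain or dissolve a blood clot was followed in mouse liver during LPS-induced endotoxemia: *F3*, *F7*, *Tfpi*, *F9*, *F11*, *Thbd*, *Proc*, *Plat* and *Plaur*. They are 9 of the 23282 rows of the deposited count files and were chosen by name. Saline-injected mice formed the control group, mice given 25 mg/kg LPS (lipopolysaccharide, the endotoxin of gram-negative bacteria) formed the endotoxemic group, and mice given 60 mg/kg LGK974 in addition to that dose of LPS formed the LGK974 group. LGK974 blocks porcupine, the enzyme that acylates Wnt proteins before they are secreted. All mice were C57BL/6, 4 weeks of age and male by the labels, all agents were given *i.p.*, and livers were taken 6 h after LPS. The labels of the LGK974 libraries name the compound only, so its dose and the LPS given with it come from the text of the study, which puts LGK974 2 h before LPS in most of its experiments. The endotoxemic group had 4 deposited libraries, but libraries 1 and 3 held the same count on every row, as did libraries 2 and 4, so each pair was counted once and every group had 2 distinct libraries. The sources used here do not say whether libraries of a group came from separate mice, so the p-values measure only the spread between these libraries.

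Whole liver RNA was sequenced from the 3′ end of transcripts, and the 6 distinct libraries held between 9142116 and 15222439 counts. Levels are given in CPM, the counts of a gene scaled to a fixed library total, after TMM normalization, and since each read starts near the end of its transcript the value does not grow with gene length. At this depth, 3 counts, taken as the smallest signal a library can show, corresponded to between 0.197 and 0.328 CPM. The rows run along the genome, but some symbols stand away from their genomic neighbours, and group changes are given only for a gene with at least 3 of the 5 rows on each side on its own chromosome within 2 Mb. By this rule 8 of the 9 genes were in genomic order, and *F3* was not. The libraries also differed in sex-linked transcripts: *Xist*, which female cells express, had between 1171 and 3115 counts in each control and endotoxemic library and 3 and 7 counts in the LGK974 libraries, whereas the Y-linked *Ddx3y* had 0 counts in the former and 1755 and 1392 in the latter. This difference goes against the single sex of the labels, and it and LGK974 treatment cannot be told apart in any comparison of the LGK974 group.

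Coagulation begins when tissue factor, the product of *F3*, meets factor VII (*F7*), and tissue factor pathway inhibitor (*Tfpi*) restrains that step. Factors IX (*F9*) and XI (*F11*) amplify the reaction until thrombin forms fibrin. Thrombin bound to thrombomodulin (*Thbd*) on endothelium activates protein C (*Proc*), which shuts the reaction down. Tissue plasminogen activator (*Plat*) and urokinase bound to its receptor (*Plaur*) turn plasminogen into plasmin, which dissolves fibrin. Hepatocytes make most of the circulating factors and protein C, whereas thrombomodulin and tissue plasminogen activator are known from endothelium and the urokinase receptor from myeloid and endothelial cells.

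The RefSeq promoter table (GRCm38.p6) held windows for 6 of the 9 genes, all but *Thbd*, *Proc* and *Plat*. The promoters below belong to *Plaur*, whose transcript rose most, and to the clotting factors among the genes, *F7* and *F9*, which fell in both LPS-treated groups, and *F11*, which passed the test in the LGK974 group, and they are shown so that these start regions can be compared. Each runs 5′ to 3′ on the strand of the gene, from 250 bases before the start to the start base, with letters that matched a searched motif in capitals. The positions are chr7:24462233-24462483 on the plus strand for *Plaur*, chr8:13025784-13026034 on the plus strand for *F7*, chrX:59999214-59999464 on the plus strand for *F9*, and chr8:45262031-45262281 on the minus strand for *F11*.
Plaur: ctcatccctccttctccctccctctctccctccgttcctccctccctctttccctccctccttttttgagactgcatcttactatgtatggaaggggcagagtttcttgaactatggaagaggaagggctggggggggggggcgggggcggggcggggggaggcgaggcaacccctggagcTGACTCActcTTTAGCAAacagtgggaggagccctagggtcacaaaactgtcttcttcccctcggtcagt
F7: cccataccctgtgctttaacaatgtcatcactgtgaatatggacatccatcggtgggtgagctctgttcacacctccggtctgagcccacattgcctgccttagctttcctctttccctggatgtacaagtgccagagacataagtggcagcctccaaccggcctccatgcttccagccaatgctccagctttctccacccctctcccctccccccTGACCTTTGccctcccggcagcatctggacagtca
F9: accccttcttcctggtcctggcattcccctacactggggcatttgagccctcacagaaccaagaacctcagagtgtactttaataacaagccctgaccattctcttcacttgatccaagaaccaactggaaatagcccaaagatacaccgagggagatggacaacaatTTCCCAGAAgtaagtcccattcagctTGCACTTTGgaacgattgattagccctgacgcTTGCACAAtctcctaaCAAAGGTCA
F11: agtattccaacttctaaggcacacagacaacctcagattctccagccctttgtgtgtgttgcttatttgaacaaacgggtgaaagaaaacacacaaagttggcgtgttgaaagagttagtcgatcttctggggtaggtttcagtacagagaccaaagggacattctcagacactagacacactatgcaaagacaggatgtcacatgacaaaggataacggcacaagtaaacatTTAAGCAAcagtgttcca

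Of these bases, 59.4% were G or C for *Plaur*, 56.2% for *F7*, 47.4% for *F9* and 42.6% for *F11*. Exact matches to 7 motifs were sought on both strands, up to 50 bases past the start. The *Plaur* promoter held an AP-1 motif (TGANTCA, bound by Fos and Jun proteins) from -69 to -63 and a C/EBP motif (TTGCNNAA) on the minus strand from -59 to -52. In the *F7* promoter an HNF4 motif (TGNNCTTTG, for the hepatocyte nuclear receptor HNF4α) lay from -34 to -26. The *F9* promoter held HNF4 motifs from -56 to -48 and, on the minus strand, from -8 to 1, a C/EBP motif from -24 to -17 and a STAT motif (TTCNNNGAA) from -82 to -74. *F11* had a C/EBP motif on the minus strand from -17 to -10. Among all 32851 windows of the table, 7.81% held the AP-1 letters, 10.8% the C/EBP letters, 6.36% the HNF4 letters and 8.3% the STAT letters. The NF-kB (GGNNTTTCC), HNF1 (GTTAATNAT) and TATA box (TATAAA) letters, held by 5.82%, 0.801% and 13.6% of windows, were not in these 4 windows. No 2 matches overlapped in the 4 promoters. The letters of the NF-kB, HNF4 and HNF1 motifs were shortened or loosened after these sequences had been seen. Nothing is therefore read from their presence or absence against the shares of windows. A match describes letters only, and binding was not measured.

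**Figure D1:**
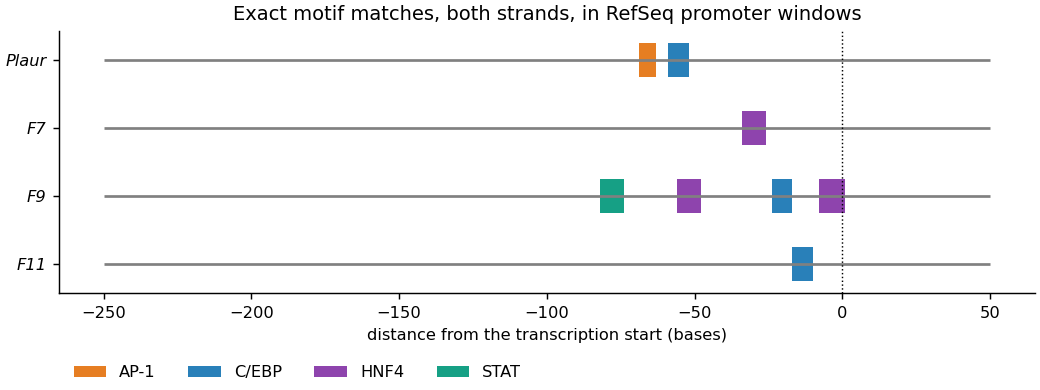
Position of exact motif matches in the promoter windows of *Plaur*, *F7*, *F9* and *F11*, with the distance from the transcription start in bases on the horizontal axis and 1 line for each gene. Each box is 1 match on either strand; all matches lay between -82 and 1.

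In the livers of the endotoxemic group, transcripts of the urokinase receptor and of thrombomodulin rose compared with the control group, while those of factor VII, protein C and factor IX fell. *Plaur* went from at most 0.261 CPM to 10.02 and 18.4 CPM, and *Thbd* was 6.61-fold higher. *F7* was 5.22-fold lower, *Proc* 3.15-fold lower and *F9* 1.66-fold lower. With edgeR's quasi-likelihood test at a Benjamini-Hochberg adjusted p below 0.05, 2 of the 8 genes in order were higher and 3 were lower, where 20.4% of the 12701 rows tested were higher and 23% lower. *Plaur* and *Plat* passed the filter on low counts only through groups in which they were high, so nothing is read from the number of higher genes against the share of all rows here or in the LGK974 group. The median log2 fold change was -0.73 over the 7 genes other than *Plat*, whose few counts give no fold here, and 0.01 over all rows tested. In the LGK974 group against the control group it was -0.97 over these 7 genes, -0.63 over all 8 and 0.02 over all rows tested.

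None of the 8 genes passed the same test between the LGK974 and endotoxemic groups. Over all rows tested, 2.8% were higher and 2.82% lower with LGK974. *Thbd* and *Plat* had an unadjusted p below 0.05, and both were higher in the LGK974 group; DESeq2 called 1 gene, *Thbd*. Compared with the control group, 3 of the 8 genes were higher in the LGK974 group (*Thbd*, *Plaur* and, in a call that 10 of 13 alternative fits lost, *Plat*) and 4 were lower (*F7*, *Proc*, *F9* and *F11*), where 16.4% of rows were higher and 17.7% lower. The comparisons of the endotoxemic and LGK974 groups with the control group use the same 2 control libraries, so their values are given side by side and are not independent. Without control library 1, 4 of the 8 genes were called between the LGK974 and control groups.

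**Figure D2:**
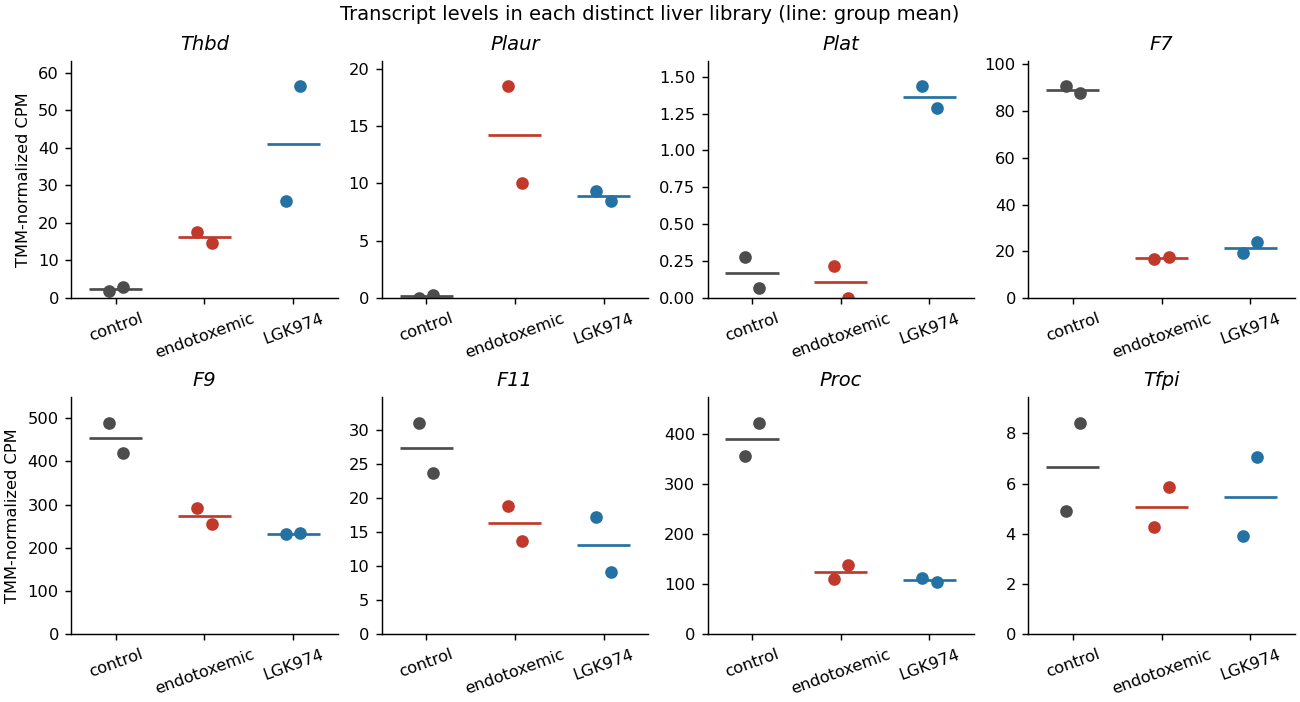
Level of each gene in genomic order, in TMM-normalized CPM on a linear axis that starts at 0, for the 2 distinct libraries of the control, endotoxemic and LGK974 groups. Points are libraries and lines are group means; *Thbd* and *Plaur* were higher and *F7*, *F9*, *F11* and *Proc* lower in every LPS-treated library than in both controls.

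*F7* encodes factor VII, the protease that tissue factor activates. It lies on chromosome 8 (GRCm38) from 13026034 to 13035809 on the plus strand. In the control libraries it reached 90.6 and 88.0 CPM, from 976 and 1346 counts. The endotoxemic libraries held 16.7 and 17.5 CPM, and the LGK974 libraries 19.1 and 24.0 CPM. Both LPS-treated groups were thus below the control libraries without overlap, and the LGK974 libraries were above the endotoxemic ones by a small margin. The fall in the endotoxemic group was -2.38 ± 0.21 on the log2 scale (SE, n = 2 libraries per group, edgeR adjusted p = 3.37e-05), and that in the LGK974 group was -2.05 ± 0.21 (adjusted p = 9.46e-05). Between the LPS-treated groups the log2 difference was 0.34, with a 95% interval from -0.13 to 0.80 (adjusted p = 0.369). The next gene on the same strand, 1498 bases away, is *F10*, which encodes factor X, and *Proz*, for protein Z, follows after another 4237 bases. *F10* fell by 0.82 in the endotoxemic group (adjusted p = 0.0082) and *Proz* fell by 2.17 (adjusted p = 0.000168), both on the log2 scale.

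Most marker transcripts of hepatocytes moved in the same direction as *F7*, *F9* and *Proc*. The fibrinogen-like gene *Fgl1*, also of hepatocytes, went the other way, with a log2 fold change of 2.68 in the endotoxemic group. Of 10 hepatocyte markers 8 were in genomic order, and their summed level was between 78740 and 110500 CPM for the control group, between 31060 and 48000 CPM for the endotoxemic group and between 34140 and 36510 CPM for the LGK974 group. *Alb*, the gene of albumin, made up most of these sums, and the other 7 summed to 25670 and 25940 CPM without LPS, 9151 and 8611 CPM after LPS alone, and 12640 and 10540 CPM after LGK974 and LPS. After LPS alone, 6 of the 8 fell and 0 rose, where 23% of all rows tested fell and 20.4% rose. None of the 8 was at 0 counts in any group. *Hnf4a*, the gene of a nuclear receptor that hepatocytes express, had a log2 fold change of -0.16 (adjusted p = 0.539). In whole liver, fewer hepatocytes and less RNA for each hepatocyte cannot be told apart. The part of these changes in the levels of *F7*, *F9*, *F11* and *Proc* was not tested.

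*Tfpi*, on chromosome 2 from 84432855 to 84476775 on the minus strand, encodes the inhibitor of the tissue factor and factor VII complex. It had between 39 and 129 counts in each library. Its level was 4.92 and 8.43 CPM without LPS, 4.26 and 5.86 CPM after LPS alone, and 3.93 and 7.04 CPM after LGK974 and LPS. All 3 groups overlapped. The log2 difference between the endotoxemic and control groups was -0.41, with a 95% interval from -1.38 to 0.57 (edgeR adjusted p = 0.476), and that between the LGK974 and endotoxemic groups was 0.12, from -0.86 to 1.10 (adjusted p = 0.902). A difference within these intervals was not detectable with these libraries, and the sign turned when single libraries were left out.

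For *F3*, which encodes tissue factor and lies on chromosome 3 from 121723537 to 121735048 on the plus strand, no group change is given. The row with its symbol stands between *A730090H04Rik* and *Kat7*, and none of its 10 neighbouring rows lies near *F3* in the genome. That row had 14 and 24 counts without LPS, 0 and 0 after LPS alone, and 0 and 1 after LGK974 and LPS. The row that stands at the genomic place of *F3*, next to *Abcd3*, carries the symbol *Bdkrb1* and had 0 and 0, 13 and 3, and 50 and 4 counts, in the same order. Which row holds the reads of *F3* in each group was not tested.

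*F9* encodes factor IX, the protease deficient in hemophilia B, and spans 59999464 to 60030759 on the plus strand of chromosome X. It was measured with between 2388 and 6404 counts in each library. The control libraries had 490.0 and 419 CPM, the endotoxemic libraries 292 and 254.5 CPM, and the LGK974 libraries 231 and 233 CPM. No LPS-treated library reached the lower control library. The log2 fold change was -0.73 ± 0.19 in the endotoxemic group (SE, n = 2, edgeR adjusted p = 0.0124) and -0.97 ± 0.19 in the LGK974 group (adjusted p = 0.00424). The first call was lost without control library 1, endotoxemic library 1 or endotoxemic library 2. The log2 fold change in these fits was -0.62, -0.78 and -0.64. The second call was lost without control library 1, and its log2 fold change stayed between -1.08 and -0.85 over all settings. Between the LPS-treated groups the log2 difference was -0.24, with a 95% interval from -0.66 to 0.19 (adjusted p = 0.497).

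*F11* encodes factor XI, which activates factor IX, and lies on the minus strand of chromosome 8 from 45241174 to 45262031. The control libraries reached 31.1 and 23.7 CPM, against 18.8 and 13.8 CPM after LPS alone and 17.2 and 9.07 CPM after LGK974 and LPS. Every LPS-treated library was below both control libraries, and the LPS-treated groups overlapped each other. In the endotoxemic group the log2 difference from the control group was -0.75, with a 95% interval from -1.51 to 0.01 (edgeR adjusted p = 0.0995), which passed the threshold in 5 alternative fits with adjusted p between 0.0168 and 0.0434. *F11* fell by 1.06 ± 0.33 in the LGK974 group (SE, n = 2, adjusted p = 0.0363), and this call was lost in 6 alternative fits, with an adjusted p of 0.207 without control library 1. The row below *F11* carries the symbol *Slamf8*, a gene from elsewhere in the genome, and 3 of the 5 rows below *F11* and all 5 above it are its neighbours.

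Thrombomodulin and protein C, the receptor and the proenzyme of one anticoagulant step, changed in opposite directions. *Thbd* lies on chromosome 2 from 148404466 to 148408188 on the minus strand. The control libraries had 1.76 and 3.01 CPM, from 19 and 46 counts. In the endotoxemic libraries *Thbd* was at 17.6 and 14.7 CPM, and in the LGK974 libraries at 26.0 and 56.4 CPM. The 3 groups did not overlap, and the LGK974 libraries stood apart from each other by more than the whole range of the other groups. *Thbd* rose by 2.73 ± 0.43 on the log2 scale in the endotoxemic group (SE, n = 2, edgeR adjusted p = 0.000964) and by 4.08 ± 0.44 in the LGK974 group (adjusted p = 0.000136), a 16.9-fold difference from the control group that was 3.41 on the log2 scale without LGK974 library 2. Between the LGK974 and endotoxemic groups the log2 difference was 1.35, with a 95% interval from 0.50 to 2.20, and did not pass the edgeR test (adjusted p = 0.0713). It was 1.81 without LGK974 library 1 (adjusted p = 0.000504) and 0.69 without LGK974 library 2 (adjusted p = 0.181), and the adjusted p was 0.0165 with DESeq2 and 0.000123 with no filter on low counts.

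Sinusoidal endothelial markers moved in both directions. Of 12, the 11 in genomic order summed to between 442 and 454 CPM for the control group, between 520.2 and 528 CPM for the endotoxemic group and between 531 and 734 CPM for the LGK974 group. Among them 2, *Lyve1* and *Cdh5*, rose and 5 fell between the control and endotoxemic groups, where 20.4% of all rows tested rose and 23% fell. The row directly above *Lyve1* carries the symbol *Snord53*, a gene from elsewhere in the genome. Of the 5 rows above *Lyve1* 4 are its neighbours, as are all 5 below. *Lyve1* alone went from 49.5 and 35.7 CPM to 360 and 336 CPM, and without it the sum was 405 and 406 CPM in the control group, 168 and 184 CPM after LPS alone, and 132 and 236 CPM after LGK974 and LPS. *Tek*, the angiopoietin receptor, had 61 and 75 counts without LPS, 0 in both endotoxemic libraries, and 8 and 25 with LGK974. *Cdh5*, which encodes the cadherin of endothelial junctions, rose by 1.79 on the log2 scale in the endotoxemic group (edgeR adjusted p = 0.000402). The part of endothelial cell number in the level of *Thbd* was not tested.

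*Proc* encodes protein C and lies on chromosome 18 from 32123126 to 32139570 on the minus strand. Its level was 356 and 422 CPM in the control libraries, from 3832 and 6455 counts. The endotoxemic libraries had 109 and 138 CPM and the LGK974 libraries 111 and 103 CPM. All 4 LPS-treated libraries were far below the control libraries, and the LPS-treated groups overlapped. The log2 fold change was -1.65 ± 0.21 in the endotoxemic group (SE, n = 2, edgeR adjusted p = 0.000236) and -1.86 ± 0.21 in the LGK974 group (adjusted p = 0.000169), and that between the LGK974 and endotoxemic groups was -0.20, with a 95% interval from -0.66 to 0.25 (adjusted p = 0.591).

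The protein C receptor on endothelium is encoded by *Procr*, which rose with *Thbd*. It was at 2.04 and 0.588 CPM without LPS, 74.2 and 55.6 CPM after LPS alone, and 31.5 and 32.2 CPM after LGK974 and LPS. With 22 and 9 counts in the control libraries, *Procr* passed the filter on low counts only through the LPS-treated libraries. Both LPS-treated groups were above the control libraries, and in contrast to *Thbd* the LGK974 libraries lay below the endotoxemic ones. The rise was 5.70 ± 0.44 on the log2 scale in the endotoxemic group (SE, n = 2, edgeR adjusted p = 1.67e-05) and 4.68 ± 0.43 in the LGK974 group (adjusted p = 5.81e-05). The first value was 6.76 without control library 1 and 4.99 without control library 2, and the second 5.73 and 3.96. The log2 difference of -1.03 between the LGK974 and endotoxemic groups did not pass the test (adjusted p = 0.106).

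**Figure D3:**
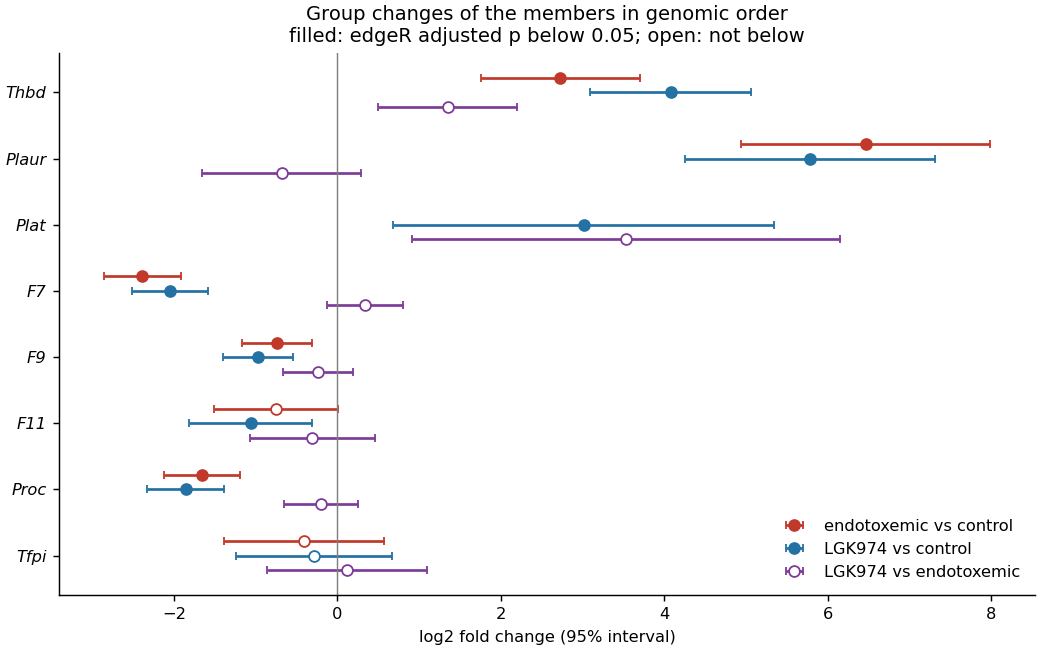
Log2 fold change of the 8 genes in genomic order for the endotoxemic group against the control group, the LGK974 group against the control group, and the LGK974 group against the endotoxemic group, with 95% intervals as bars. Filled points passed the edgeR test at an adjusted p below 0.05 and open points did not; *Plat* has no point for the endotoxemic group because both groups were near the smallest detectable signal. All points for the LGK974 group against the endotoxemic group are open.

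*Plaur* encodes the urokinase receptor, which gathers plasminogen activation at the cell surface, and lies on chromosome 7 from 24462484 to 24475968 on the plus strand. Reads were nearly absent from the control libraries, with 0 and 4 counts, against 169 and 94 after LPS alone and 123 and 125 after LGK974 and LPS. In CPM these were 0 and 0.261, 18.4 and 10.02, and 9.29 and 8.46. The LPS-treated libraries were all far above the controls, and the LGK974 libraries were just below the lower endotoxemic library. Summed over libraries and corrected for depth, *Plaur* was 92.4-fold higher in the endotoxemic group, with an exact 95% counting interval from 35.7 to 342, and 57.7-fold higher in the LGK974 group, from 22.3 to 213. The edgeR test gave an adjusted p of 8.17e-05 and 0.00023, with log2 fold changes of 6.47 and 5.78. Without control library 1 these were 5.71 and 5.03, and without control library 2, which leaves a control library with 0 counts, the fit gave 10.35 and 9.67. Between the LGK974 and endotoxemic groups the log2 difference was -0.68, with a 95% interval from -1.65 to 0.29 (adjusted p = 0.384). *Plau*, which encodes urokinase itself, had between 2 and 12 counts in each library and did not pass the filter on low counts.

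Neutrophil markers rose along with *Plaur*. Of 10, the 6 in genomic order summed to 1.76 and 2.35 CPM without LPS, 98.4 and 111 CPM after LPS alone, and 72.0 and 66.0 CPM after LGK974 and LPS. All 6 were higher after LPS alone, where 20.4% of all rows tested were. All but *Retnlg* passed the filter on low counts only through LPS-treated libraries, so nothing is read from this number. *Ngp*, *Camp* and *Ltf*, which encode proteins of neutrophil granules, were at 0 counts in both control libraries. Of 10 Kupffer cell and macrophage markers, the 7 in order summed to between 116 and 119 CPM for the control group, between 139 and 154 CPM for the endotoxemic group and between 98.9 and 137 CPM for the LGK974 group. Of these 7, *Marco* rose and *Clec4f* and *Vsig4* fell after LPS alone, and without *Marco* the sum was 109 and 112 CPM in the control group, 57.3 and 64.9 CPM after LPS alone, and 38.1 and 39.6 CPM after LGK974 and LPS. Stellate cell markers, 10 in order, summed to between 499 and 514 CPM, between 587 and 633 CPM and between 519.8 and 620.2 CPM, in the same order. After LPS alone 1 stellate marker, *Dcn*, rose and 5 fell, where 20.4% of all rows tested rose and 23% fell. Without *Dcn* the sum was 159.9 and 156 CPM without LPS, 84.0 and 81.8 CPM after LPS alone, and 100.9 and 111 CPM after LGK974 and LPS. The part of neutrophils in the level of *Plaur* was not tested.

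**Figure D4:**
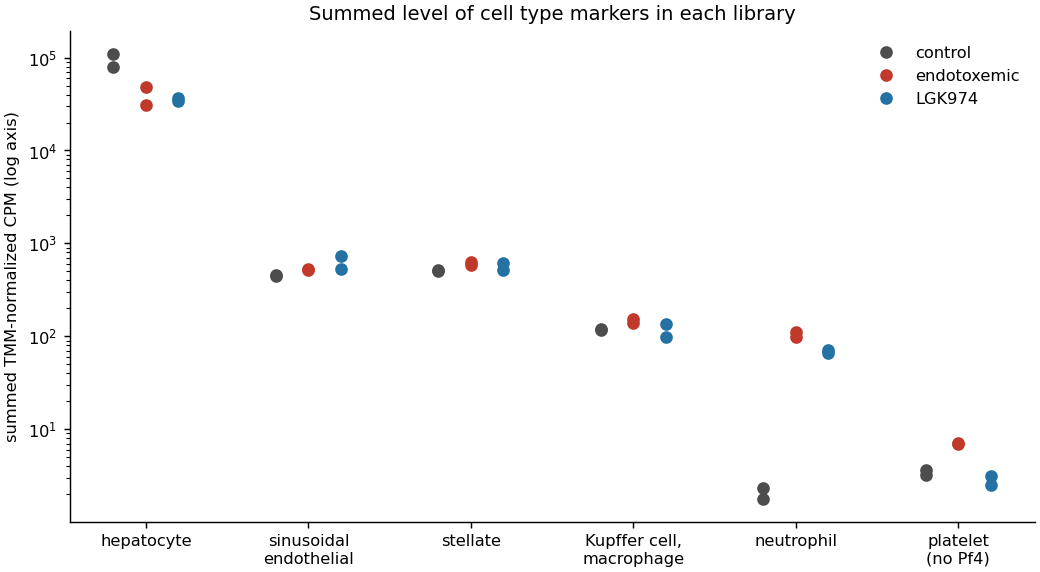
Summed TMM-normalized CPM of the markers of 6 cell types in each distinct library, on a log axis, with points colored by group. Hepatocyte sums were lower in all LPS-treated libraries than in both controls and neutrophil sums went from 1.76 and 2.35 CPM to at least 66.0 CPM.

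*Plat*, the gene of tissue plasminogen activator, lies on chromosome 8 from 22757727 to 22782844 on the plus strand and had at most 3 counts in every control and endotoxemic library. Its counts were 3 and 1 without LPS, 2 and 0 after LPS alone, and 19 and 19 after LGK974 and LPS. The LGK974 libraries, at 1.43 and 1.29 CPM, were above all others, and *Plat* passed the filter only through them. The LGK974 to control ratio was 8.84, with an exact 95% counting interval from 3.18 to 34.1 (edgeR adjusted p = 0.0494), and that to the endotoxemic group was 12.6, from 3.25 to 108 (adjusted p = 0.109). The call against the control group was lost in 10 of 13 alternative fits, with adjusted p between 0.0509 and 0.292 in those. The fitted log2 fold change against the control group was 3.02, and it became 4.18 without control library 1 and 2.25 without control library 2. Against the endotoxemic group it was 3.53, and it became 2.59 without endotoxemic library 2 and 7.13 without endotoxemic library 1, which leaves an endotoxemic library with 0 counts. The row directly above *Plat* carries the symbol *Tnfrsf10b*, a gene from elsewhere in the genome, although 3 of the 5 rows above it and all 5 below are its neighbours. The control and endotoxemic groups were both at or under 3 counts in each library, and no fold is given between them. The 6 platelet markers in order other than *Pf4* summed to 3.62 and 3.20 CPM without LPS, 6.87 and 7.04 CPM after LPS alone, and 3.17 and 2.504 CPM after LGK974 and LPS, and *Treml1* among them was higher after LPS alone. *Treml1* had 0 counts in both control libraries, *Gp6* had 0 counts in every library, and counts of *Gp5* were 1 and 0 without LPS, 6 and 6 after LPS alone, and 0 in each LGK974 library. The row with the symbol *Pf4* met the rule on neighbours but did not lie between its nearest in-order rows, and it had 3.99 and 4.90 CPM, 545 and 643 CPM, and 66.7 and 9.34 CPM in the same order.

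The urokinase receptor and tissue plasminogen activator act on plasminogen, the zymogen encoded by *Plg*. *Plg* fell by 0.83 on the log2 scale in the endotoxemic group (edgeR adjusted p = 0.0241), and *Cpb2*, whose product protects fibrin from lysis, rose by 1.54 (adjusted p = 0.00231). Of 6 tested genes of plasminogen activation and its control, 3 rose and 2 fell after LPS alone, where 20.4% of all rows tested rose and 23% fell.

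Of 46 other listed genes of coagulation and fibrinolysis, 35 were in genomic order and 32 were tested. Against the control group, 11 were higher and 11 lower after LPS alone, where 20.4% and 23% of all rows tested were. Leaving out endotoxemic library 1 gave 11 higher and 6 lower, and leaving out either control library or endotoxemic library 2 gave between 8 and 11 higher and between 8 and 9 lower. After LGK974 and LPS, 11 were higher and 11 lower than in the control group, where 16.4% and 17.7% of all rows were. *Serpina5* and *Procr*, higher in both comparisons, passed the filter on low counts only through LPS-treated libraries. Nothing is therefore read from the number of higher genes against the share of all rows. The 3 fibrinogen chains rose together in the endotoxemic group, *Fga* by 2.26, *Fgb* by 2.08 and *Fgg* by 2.29 on the log2 scale, whereas 5 of the 10 tested coagulation factors fell. *Fgl1*, a fibrinogen-like gene of hepatocytes, rose by 2.68 ± 0.21 (SE, n = 2, edgeR adjusted p = 1.72e-05), from 651 and 574 CPM to 4172 and 3667 CPM, and was at 3493 and 4152 CPM after LGK974 and LPS. *F5*, the cofactor of factor X, fell by 2.49 (edgeR adjusted p = 1.76e-05), from 1057 and 1023 CPM to 179 and 192 CPM. Among 8 inhibitors tested 3, *Serpina5* included, were higher and 1 lower. The lower one was *Serpind1*, which encodes heparin cofactor II and fell by 2.78 (adjusted p = 3.37e-05), from 406 and 458 CPM to 58.5 and 67.3 CPM. *Serpina5*, the gene of the protein C inhibitor, had 0 counts in both control libraries and was at least 3.18-fold higher in the endotoxemic group and at least 5.26-fold higher in the LGK974 group, against a floor of 3 counts per library. It passed the filter on low counts only through the LPS-treated libraries, did not pass it in the fit of only the endotoxemic and control groups, and its edgeR adjusted p of 0.0106 and 0.00617 rose to 0.066 and 0.0513 without control library 2. The call in the endotoxemic group was also lost without control library 1 (edgeR adjusted p = 0.0515) and without endotoxemic library 2 (adjusted p = 0.0629).

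Factors VII, IX and X and protein C are completed by vitamin K-dependent carboxylation before secretion. Of 5 listed genes of this modification and of factor secretion, 3 fell in the endotoxemic group and 0 rose, where 23% of all rows tested fell and 20.4% rose. *Ggcx*, the carboxylase, fell by 1.44 (edgeR adjusted p = 0.00464), *Vkorc1*, which recycles vitamin K, fell by 1.52 (adjusted p = 0.00332), and *Lman1*, a carrier of factors V and VIII, fell by 0.81 (adjusted p = 0.00611), all on the log2 scale. These 3 genes were also lower after LGK974 and LPS than after saline, as were 17.7% of all rows tested.

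Between the LGK974 and endotoxemic groups, 1 of the 32 genes was higher and 0 were lower, a share near that of all rows tested, of which 2.8% were higher and 2.82% lower. It was *F2r*, which encodes the thrombin receptor PAR1 and was at 26.7 and 27.7 CPM without LPS, 31.0 and 26.8 CPM after LPS alone, and 69.1 and 45.8 CPM after LGK974 and LPS. The row directly above *F2r* carries the symbol *Chst4*, a gene from elsewhere in the genome. Of the 5 rows above *F2r* 3 are its neighbours, as are all 5 below. For *F2r*, the control and endotoxemic libraries overlapped and both LGK974 libraries were above them. Its log2 fold change was 0.99 ± 0.24 (SE, n = 2, edgeR adjusted p = 0.0473), and the call was lost in 5 of 14 alternative fits, with adjusted p between 0.0977 and 0.304.

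**Figure D5:**
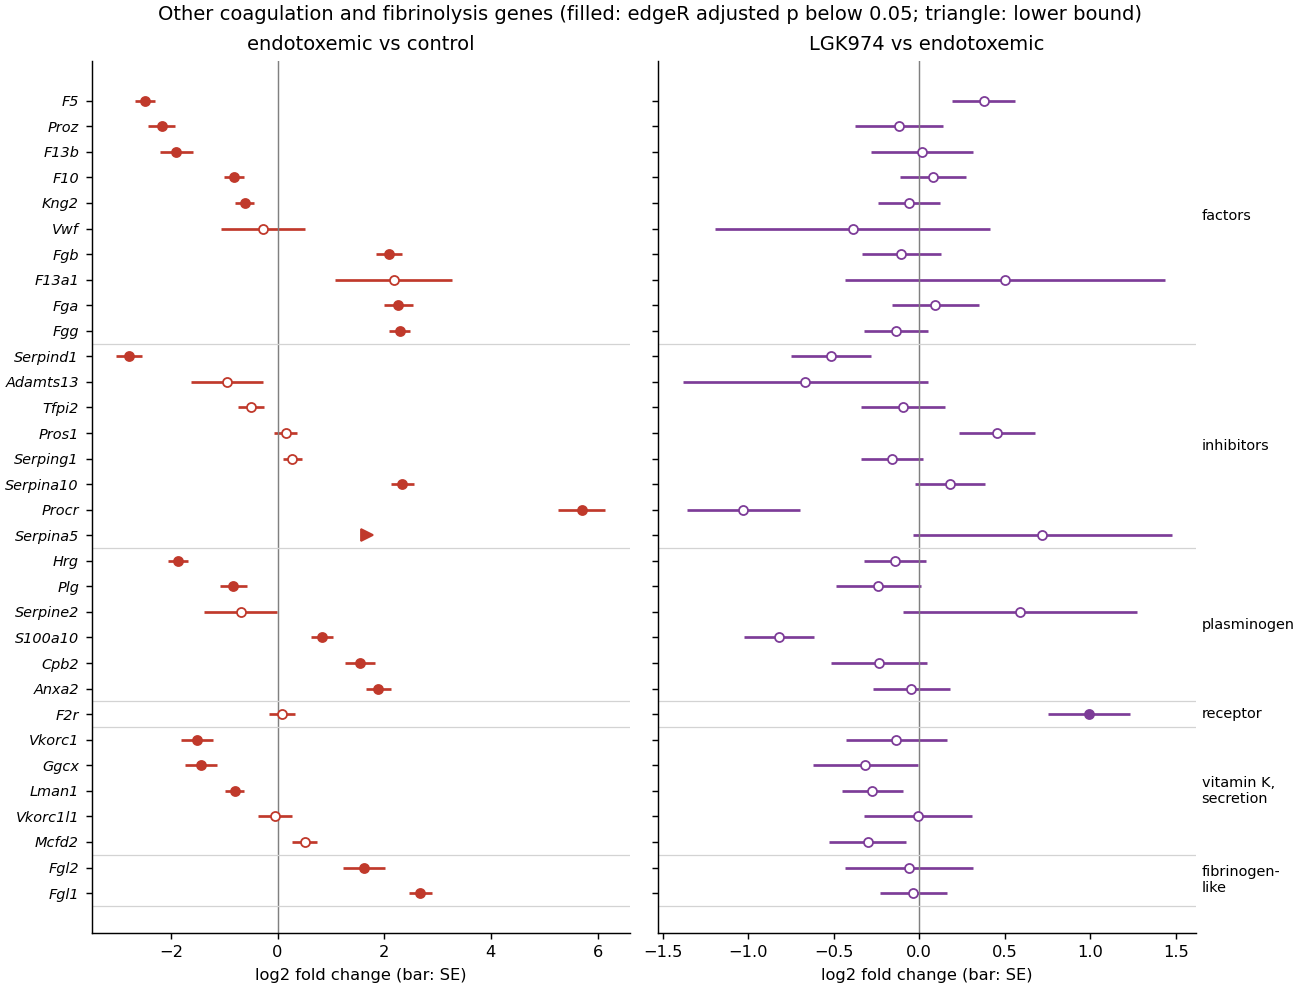
Log2 fold change of the 32 other genes of coagulation and fibrinolysis that were tested, grouped by role, for the endotoxemic group against the control group (left) and the LGK974 group against the endotoxemic group (right, on a narrower axis), with the SE as bars. Filled points passed the edgeR test at an adjusted p below 0.05, and the triangle is the lower bound of *Serpina5*. On the left 11 genes were higher and 11 lower, and on the right *F2r* alone passed.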

How the data were processed

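RNA from mouse liver was made into 3′-end libraries with the Lexogen QuantSeq kit from 500 ng of total RNA. The authors deposited whole-number counts of reads for 23282 gene symbols in each library, without normalization. The submitters' processing notes name Bowtie2, edgeR and mm10, and the counting program and annotation are not given in the sources used here. Gene positions were taken from GENCODE vM21 and row neighbours from RefSeq, both on GRCm38, and no gene model overlapped any of the 9 genes. Identical libraries were counted once.

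Differences were tested with edgeR 4.0.16 under R 4.3.3, using filterByExpr by group, TMM normalization and 1 quasi-likelihood model of the 3 groups over 6 libraries, with Benjamini-Hochberg adjustment over 12701 rows at a threshold of 0.05. The common biological coefficient of variation was 0.239. The SE was derived from the F statistic, and the scripts were tested on simulated data. DESeq2 1.42.0 and other filters, scalings, designs and left-out libraries were tried as alternatives. Folds of genes with few counts in a group are ratios of summed counts with exact 95% intervals, which, like the floor of 3 counts, cover counting error only. The sources used here mention no molecular identifiers.

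The 9 genes, the gene lists and the tests were chosen with earlier results of these data known. Besides the 9 genes, the text names the 3 largest rises and falls of the hemostasis list in each comparison among genes that passed the test without overlap of groups, the gene with the nearest profile to each of the 8 in genomic order, and markers at 0 in a group. The other genes of that list and the single markers other than those at 0 and *Plau* were named after their values were seen. The letters of the NF-kB, HNF4 and HNF1 motifs were shortened or loosened after the promoter sequences had been seen, and *Pf4*, *Alb*, *Lyve1*, *Marco* and *Dcn* were left out of marker sums, and *Plat* of a median, after their values had been seen. A gene of the hemostasis list is not reported here and was left out of its counts.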

Additional observations from a re-analysis of the deposited data

How the results depend on the processing

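Of 316 fold changes of the 8 genes, without that of *Plat* between the endotoxemic and control groups, recomputed under alternative settings, 282 kept their direction and their side of the threshold, 20 lost the call, 8 gained it and 6 turned in direction. *F7*, *Proc*, *Plaur* and *Thbd* kept their calls against the control group in every alternative run that tested them. *Plaur* was not tested in the run with at least 10 counts in every library. The turns belonged to differences that had not passed the test and came from leaving out single libraries, over which *Tfpi* ranged from -0.7375 to 0.0438 for the endotoxemic against the control group, from -0.37 to 0.48 for the LGK974 against the endotoxemic group and from -0.77 to 0.16 for the LGK974 against the control group, and *F11* from -0.84 to 0.0821 for the LGK974 against the endotoxemic group. Between the LGK974 and endotoxemic groups, 1 of the 8 genes was called with no filter on low counts and 1 with DESeq2, against 0 in the main analysis, and leaving out single libraries gave between 0 and 1. Of the other hemostasis genes 3 were called in that comparison with no filter, 3 with DESeq2, 2 with at least 10 counts in every library, 2 with RLE normalization, 2 with rows out of genomic order left out and 0 with only the 2 groups compared, against 1, and leaving out single libraries gave between 0 and 4. For the LGK974 against the control group, leaving out single libraries gave between 4 and 6 of the 8 genes. Libraries of different groups share replicate numbers in the labels only, and the deviations of same-numbered libraries correlated at 0.14, -0.01 and 0.06. With the replicate number as a block, 6, 0 and 6 of the 8 genes were called for the endotoxemic against the control, the LGK974 against the endotoxemic and the LGK974 against the control group, and 23, 1 and 24 of the other hemostasis genes. Under this replicate block *F11* passed in the endotoxemic group (adjusted p = 0.0349) and *Plat* missed the threshold in the LGK974 group (adjusted p = 0.0641). With only the nearest row on each side, or a window of 1 Mb, 6 and 7 of the 9 genes were in genomic order. Where a fit left a group with 1 library, that library is assumed to vary like the others. The share of all rows called was computed for the main fit only. Nothing is therefore read from how the counts of called genes moved under alternative fits. The causes of these shifts were not tested.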

Other observations

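For each of the 8 genes in genomic order, the other tested gene in order with the closest log2 CPM profile over the 6 libraries was found by Euclidean distance after centring. Pearson's r over the libraries is given as a description, since the libraries share groups and depth. *F7* was closest to *Aqp1*, a water channel gene, with an r of 0.999, and *Aqp1* went from 149 and 148 CPM in the control libraries to 30.8 and 31.0 CPM in the endotoxemic and 34.1 and 38.9 CPM in the LGK974 libraries. *Proc* was closest to *Cyp2d10*, a cytochrome P450 gene, with an r of 0.997 and levels of 482 and 568, 132 and 182, and 156 and 132 CPM in the same order. *F9* was closest to *Clk3* (r = 0.990), *F11* to *Jup* (r = 0.986) and *Tfpi* to *Pms1* (r = 0.964). The genes that were low in the control libraries had more distant neighbours. *Thbd* was closest to *Iqck* (r = 0.990), at 0.0928 and 0.327, 2.95 and 1.49, and 5.21 and 11.8 CPM, and *Plaur* to *Ankrd2* (r = 0.994), at 0.186 and 0.915, 21.7 and 19.6, and 20.6 and 15.9 CPM. *Plat* was closest to *Gad2* (r = 0.950), which was at or below 0.327 CPM in the control and endotoxemic libraries and at 2.42 and 0.812 CPM in the LGK974 libraries.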
